A study of Mus musculus with 2 samples.

Results

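The genes described here are the YAP and TAZ co-activators, the TEAD factors they bind, and classical genes switched on through them, 10 of the 31053 genes in the deposited matrices. They were taken as a named list, drawn up with earlier results of these data known: the co-activators Yap1 and Wwtr1 (the gene of TAZ), the factors Tead1, Tead2, Tead3 and Tead4, and the targets Ankrd1, Cyr61 (also named Ccn1), Ctgf (also named Ccn2) and Amotl2. All 10 had UMIs, unique molecular identifiers that count captured RNA molecules, in both libraries. They were measured by droplet single-cell RNA sequencing of the whole aorta-gonads-mesonephros region (AGM), the embryonic site in which the first blood stem cells arise, from mouse embryos of embryonic day 11. One library came from PDGFRB +/+ (WT) and the other from PDGFRB -/- (KO) embryos, a germline knockout of the PDGF receptor beta on a C57BL/6J background, bred from heterozygous parents, so that every cell of a KO embryo lacked the receptor from conception. The cells were dissociated with collagenase and not sorted, each library was loaded for 7000 cells, and how many embryos went into each library is not given in the sources used here.

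With 1 library per genotype there was no replicate and no test: levels are CPM (UMIs of a gene per 1000000 UMIs of all genes, summed over the cells of a class), with exact Poisson 95% intervals in parentheses, and ratios carry exact binomial 95% intervals. These intervals cover counting error only, and they are too narrow where a few cells hold most of the UMIs of a gene. The cells used were 8253 in WT, with a median of 13321 UMIs, and 8165 in KO, with a median of 12391. Pdgfrb, the deleted gene, was at 43.1 CPM over all WT cells and at 7.09 CPM over all KO cells, and 33.8% of the WT but 9.81% of the KO cells held one of its UMIs. Xist was at 793 CPM in WT and 0.415 in KO, and Ddx3y at 0.00666 and 56.7 CPM, so that genotype, embryo sex and library cannot be told apart in any difference between the libraries given here. The libraries shared 20 cell barcodes, 0.242% of the WT and 0.245% of the KO cells, and free RNA, judged from globin UMIs, made up 0.672% to 1.96% of the UMIs of the WT classes and 0.460% to 2.01% of those of the KO classes.

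YAP and TAZ sit at the end of the Hippo pathway. When the kinases of the pathway are active, they phosphorylate YAP and TAZ, which then stay in the cytoplasm or are degraded; when the kinases are quiet, or when a cell is spread and under tension, YAP and TAZ enter the nucleus, where they bind DNA through a TEAD factor and switch genes on. The output of the pathway is therefore set mainly at the protein level, and RNA of Yap1 or Wwtr1 says little about how active they are. Ctgf and Cyr61 encode secreted proteins of matrix-producing cells, and Ankrd1 is known from stretched heart and muscle.

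TEAD factors recognise the bases GGAATG, or CATTCC on the opposite strand, so the 250 bases before the start of each gene in RefSeq (GRCm38.p6) were searched for either word. A promoter was in the table for 7 of the 10 genes, all but Tead1, Tead4 and Ctgf, and 6 of the 7 held the word, with Tead2 the exception. Of all 27025 genes in the table, 14.4% held it in at least 1 of their promoters, as did 12.6% of the 32851 promoters. The sites are shown because they are the DNA through which these genes could be read by the factors in the same list. Each is 30 bases long and printed 5′ to 3′ on the strand of its gene, with the word in capitals. The Yap1 site lay at chr9:8004720-8004749 (minus strand), 141 bases before the start, and that of Wwtr1 at chr3:57576029-57576058 (minus strand), 136 bases before the start. Tead3 had a site at chr17:28350970-28350999 (minus strand) outside any exon and a pair of words at chr17:28350706-28350735 (minus strand), in an annotated exon of Tead3. Ankrd1 had 2 sites, at chr19:36120037-36120066 and at chr19:36119950-36119979 (minus strand), 210 and 123 bases before the RefSeq start, both inside the untranslated first part of a longer transcript in GENCODE M21. The Cyr61 site lay at chr3:145650071-145650100 (minus strand), 103 bases before the start and in no exon, and the Amotl2 site at chr9:102717727-102717756 (plus strand), 65 bases before the start and within an exon of another transcript. A match of these letters does not show that a factor binds there.
Yap1: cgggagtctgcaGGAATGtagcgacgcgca
Wwtr1: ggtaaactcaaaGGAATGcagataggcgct
Tead3, first: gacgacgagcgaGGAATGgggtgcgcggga
Tead3, pair: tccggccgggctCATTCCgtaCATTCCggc
Ankrd1, distal: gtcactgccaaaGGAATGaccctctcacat
Ankrd1, proximal: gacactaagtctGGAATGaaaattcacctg
Cyr61: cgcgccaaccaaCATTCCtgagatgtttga
Amotl2: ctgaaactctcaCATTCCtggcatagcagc

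Cells were sorted into 15 classes by marker genes, none of them a member of the set, and 12 classes had at least 50 cells in both libraries. In WT, Cdh5 (VE-cadherin) was at 455 CPM in the endothelial class and 5.60 in the other cells. Myh11 (smooth muscle myosin) was at 104 CPM in the smooth muscle class against 5.75. Myog was at 814 CPM in the myogenic class against 3.20, and Csf1r at 441 CPM in macrophages against 1.34. These genes and those named next are gate markers, so their excess follows in part from the gating. Among genes outside the gates, the WT excess over the rest was 124-fold for Aplnr in endothelial cells and 12.3-fold for Eln in smooth muscle cells. It was 344-fold for Tnnc2 in myogenic cells and 942-fold for Folr2 in macrophages. The splanchnic mesenchyme name rested on a smaller step, Tcf21 at 200 CPM against 58.3, and in the class named for coelomic epithelium and gonad the mesothelial marker Msln was at 0.423 CPM although Upk3b was at 189. Some cells passed the gates of 2 or 3 mesenchymal types and form a class of their own, and this class was deep, with medians of 25238 UMIs per cell in WT and 27440 in KO. All mesenchymal cells are pooled where stated, 5419 in WT and 5810 in KO. Of these, sclerotome made up 22.9% in WT and 34.6% in KO, splanchnic mesenchyme 18.2% and 7.54%, and smooth muscle cells 4.78% and 3.43%.

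UMIs of both co-activators were found in all 12 classes, but they had different patterns. Yap1 (ENSMUSG00000053110, GRCm38 chr9:7931999-8004596, minus strand) varied little outside the blood: in WT its level ran from 57.9 CPM in cells of several mesenchymal gates down to 40.1 in myogenic cells. No neighbours in this order of 10 classes differed beyond counting error, which does not compare its ends. Macrophages followed at 15.5 CPM and erythroid cells, whose RNA is mostly globin, at 8.19. A Yap1 UMI was found in 15.4% of WT macrophages, where 5 cells held 36.2% of them, and in 9.86% of WT erythroid cells. Such levels do not establish expression in the blood classes. Wwtr1 (chr3:57455649-57575910, minus strand) was less even. It was highest in WT in the coelomic epithelium and gonad class at 76.6 CPM and in endothelial cells at 72.0 CPM, and lowest among the tissues outside the blood in splanchnic mesenchyme at 30.2 CPM. In WT endothelial cells Wwtr1 was higher than in mesenchymal cells by 0.93 on the log2 scale (0.74 to 1.11), while for Yap1 the same difference was -0.04 (-0.26 to 0.18).

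Among the TEAD factors, each of which can recruit either co-activator, Tead1, Tead2 and Tead3 were found throughout the tissue and Tead4 was restricted. Tead2 (chr7:45215753-45233644, plus strand) had the narrowest range: 10 WT classes lay between 194 CPM in other mesenchyme and 148 CPM in coelomic epithelium and gonad. No neighbours among them differed beyond counting error, which again does not compare the ends. Tead1 (chr7:112679318-112906807, plus strand) ran from 141 CPM in coelomic epithelium and gonad and 135 CPM in smooth muscle cells to 72.6 CPM in sclerotome, with macrophages at 28.8. It was higher in smooth muscle cells than in other mesenchyme by 0.59 (0.47 to 0.71) on the log2 scale. Tead3 (chr17:28331671-28350817, minus strand) was highest in smooth muscle cells at 24.3 CPM and low in endothelial cells at 6.0 CPM, with a log2 value of endothelial over mesenchymal cells of -1.60 (-2.28 to -1.0). Of those 22 endothelial Tead3 UMIs, 15 lay in 10 cells that also passed the smooth muscle gate, and without these cells the level was 2.21 CPM. Tead4 (chr6:128224288-128300823, minus strand) was found at 7.98 CPM in myogenic, 6.81 in endothelial and 6.77 in coelomic epithelium and gonad cells, levels that did not differ beyond counting error, and the next class, Schwann and neural crest cells, was at 1.90 CPM. Tead4 was thus the member with the largest excess in endothelial over mesenchymal cells, 2.74 (2.04 to 3.39) on the log2 scale, and no UMI of it was seen in macrophages, where 3 UMIs would be 0.800 CPM in WT and 1.12 in KO. In KO the same 3 classes led for Tead4, with endothelial cells first.

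The targets were spread differently from the factors and differently from each other. Ankrd1 (chr19:36111961-36120099, minus strand), a cardiac and muscle ankyrin-repeat protein, was close to a smooth muscle gene: WT smooth muscle cells were at 54.7 CPM (48.7 to 61.2), cells of several mesenchymal gates at 43.9, myogenic cells at 4.28 and endothelial cells at 2.18, while sclerotome, splanchnic and other mesenchyme were at 0.161, 0.159 and 0.289 CPM. The difference between smooth muscle cells and other mesenchyme was 7.56 (6.66 to 8.64) on the log2 scale. The WT neuronal class was at 28.0 CPM, but all 97 of its Ankrd1 UMIs came from 1 cell, which also passed the smooth muscle gate. Cells of several mesenchymal gates and smooth muscle cells together held 52.5% and 30.6% of all WT Ankrd1 UMIs, with 7.82% and 3.67% of all UMIs.

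Ctgf (chr10:24595442-24598683, plus strand) and Cyr61 (chr3:145646976-145649981, minus strand) encode secreted matricellular proteins of the same family. Ctgf was highest in WT smooth muscle cells at 58.8 CPM, followed by cells of several mesenchymal gates at 33.6, endothelial cells at 31.9 and sclerotome at 22.5, and the other 8 classes were at or below 6.93 CPM. The endothelial level was 8.20 CPM without the 10 cells that also passed the smooth muscle gate, for which Cyr61 went from 30.5 to 13.6 CPM. Its sclerotome level set it apart from Ankrd1: 257 of 1240 WT sclerotome cells (20.7%) held a Ctgf UMI against 6 of 182 macrophages (3.30%), which should lack the gene, at medians of 12383 and 18561 UMIs per cell, and 3.95% against 0% after thinning each cell to 2000 UMIs. Cyr61 was also highest in smooth muscle cells at 88.3 CPM, but it was found in every class, at 71.5 CPM in coelomic epithelium and gonad, 52.1 in myogenic cells and 30.5 in endothelial cells, down to 19.7 in macrophages and 6.02 in erythroid cells. Smooth muscle cells exceeded other mesenchyme by 3.57 (3.30 to 3.85) for Ctgf and by 1.20 (1.04 to 1.35) for Cyr61 on the log2 scale. Amotl2 (chr9:102716672-102733418, plus strand), a junction protein that binds YAP and restrains it, was highest in coelomic epithelium and gonad at 78.3 CPM, ahead of Schwann and neural crest cells at 55.4 and smooth muscle cells at 53.2, and its smooth muscle excess was 0.45 (0.27 to 0.64). The plot of all 10 genes by class sets these patterns side by side.

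**Figure D1:**
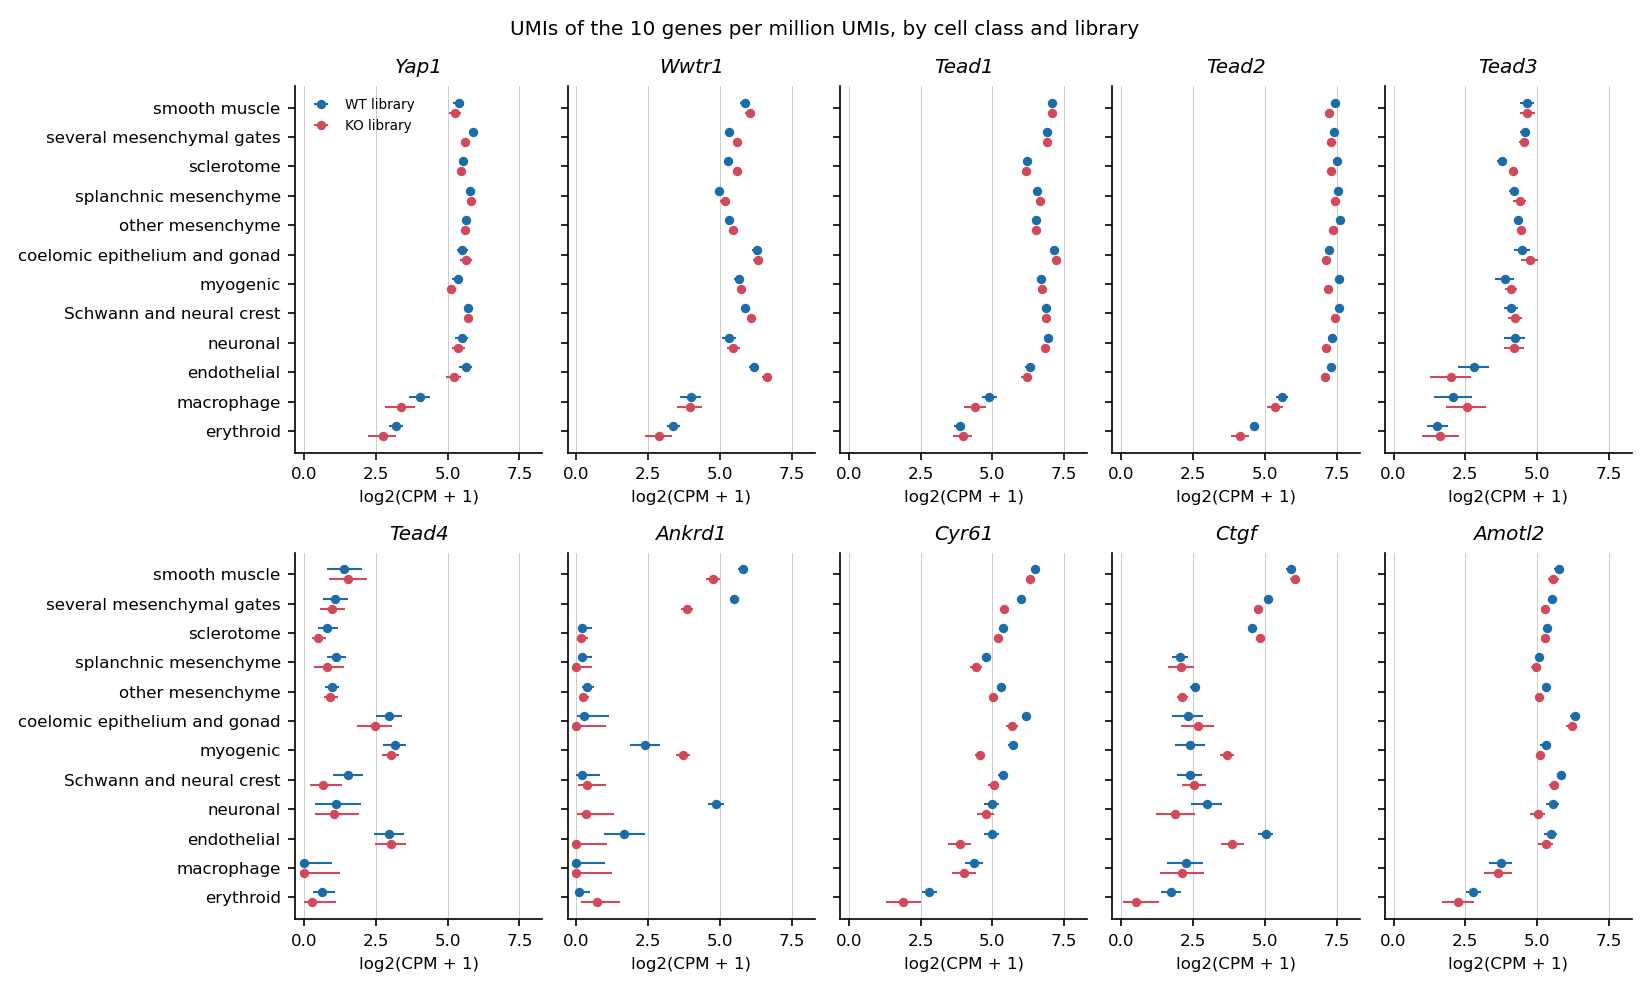
Level of each of the 10 genes in 12 cell classes, as log2(CPM + 1) of the UMIs summed over the cells of a class, for WT (blue) and KO (red), with exact Poisson 95% intervals as bars and 1 library per genotype. Yap1 and Tead2 vary little across the classes outside the blood. Tead4 stands out in myogenic, endothelial and coelomic cells, and Ankrd1 and Ctgf peak in smooth muscle cells, at 54.7 and 58.8 CPM in WT.

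Across the 12 WT classes, the profile of log2(CPM + 1) of Yap1 ran most closely with that of Tead2 (Pearson r = 0.975 in WT and 0.980 in KO), and that of Wwtr1 with Amotl2 (0.952 and 0.955). Tead1 went with Amotl2 (0.972 and 0.933), Tead3 (0.938 and 0.844), Tead2 (0.932 and 0.931) and Yap1 (0.929 and 0.943), and less closely with Cyr61 (0.900 and 0.831). Ankrd1 and Ctgf were less alike, at 0.659 and 0.658, and Ankrd1 was little related to Yap1, at 0.311 and 0.101. These correlations describe 12 classes of 1 library each, which share free RNA and the low values of the erythroid and macrophage classes. Between the libraries, the profile of a gene over the 12 classes was most alike for Tead2 (r = 0.995) and Amotl2 (0.990) and least alike for Ctgf (0.886) and Ankrd1 (0.757), of whose 12 points the WT neuronal value was set by 1 cell.

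Among all genes with at least 1000 UMIs, the profiles closest to that of Ankrd1 in WT were those of Acta2, Tagln and Cnn1, the smooth muscle genes for actin, transgelin and calponin, with r of 0.868, 0.851 and 0.847. Cnn1 was among the markers of the smooth muscle gate. For Ctgf they were Eln (elastin), Fhl2 and Cspg4, the gene of the pericyte marker NG2, at 0.918, 0.900 and 0.895. For Amotl2 they were Jmy, Ajuba and Phldb1 at 0.986, 0.979 and 0.977, of which Ajuba encodes a LIM protein of cell junctions that holds back the Hippo kinases. For Cyr61 they were Zfp654, Ext1 and Hoxc5 at 0.956, 0.943 and 0.942. Tead3 was closest to the imprinted genes Peg3 and Dlk1, at 0.982 and 0.973. Likeness over 12 classes is a description of where RNA was found.

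KO was compared with WT first in all mesenchymal cells pooled, a set not limited to the perivascular niche cells of the study. Differences are between 2 libraries that also differ in embryo sex, so they cannot be assigned to the loss of the receptor. In mesenchymal cells the co-activators and factors differed little between the libraries: Wwtr1 had 37.8 CPM (36.5 to 39.1) in WT and, in KO, 45.3 (44.0 to 46.7), higher by 0.26 (0.20 to 0.33) on the log2 scale. Tead2 was at 185 CPM in WT and 161 in KO, a difference of -0.20 (-0.23 to -0.16), and Yap1 at 49.8 and 46.4 CPM, a difference of -0.10 (-0.16 to -0.04) that was 0.0045 with each cell thinned to 2000 UMIs. These are differences beyond counting error but under 1.5-fold. For Tead1 and Tead3 the values were -0.04 (-0.09 to 0.00) and 0.11 (0.01 to 0.21), and for Tead4, with 91 and 71 UMIs, -0.40 (-0.87 to 0.07).

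Of the 4 targets, Ankrd1 had the largest difference in mesenchymal cells. WT stood at 9.32 CPM (8.69 to 9.97), and KO stood at 3.17 CPM (2.82 to 3.56), lower by 1.56 on the log2 scale, with a value of -1.56 (-1.75 to -1.36). Cyr61 was at 42.5 and 35.7 CPM, -0.25 (-0.32 to -0.18), and Amotl2 at 39.3 and 35.6 CPM, -0.15 (-0.22 to -0.08). Without Pdgfrb-positive cells of both libraries these values were 0.03 and 0.10. That removal took 43.1% of the WT but 11.8% of the KO mesenchymal cells, so it left unlike sets of cells to compare. In the main values Ctgf went the other way, at 15.3 and 17.4 CPM, 0.19 (0.08 to 0.29), but this was 0.04 with the mix of mesenchymal types equalised. Of the 10 members, 1 was at least 1.5-fold lower in KO and 0 were at least 1.5-fold higher. Of the 13547 genes with at least 100 UMIs in mesenchymal cells, 4.66% were lower and 4.42% higher by that much. The median log2 value of the members was -0.12, and that of all those genes 0.02.

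Within mesenchyme the direction was the same in both classes that held nearly all Ankrd1 UMIs. In smooth muscle cells Ankrd1 was at 54.7 CPM in WT and 26.1 in KO, -1.07 (-1.38 to -0.76), and in cells of several mesenchymal gates at 43.9 and 13.4 CPM, -1.71 (-1.98 to -1.45). In the latter class 1 cell held 116 of the 516 WT UMIs, and 1 cell held 106 of the 155 KO UMIs. Its Ankrd1 value was -0.11 (-0.46 to 0.23) under 5% mitochondrial UMIs and -3.35 (-3.90 to -2.85) from 5% to 10%. In the same class Cyr61 was also lower, at -0.59 (-0.76 to -0.42), as was Ctgf, at -0.34 (-0.56 to -0.13). The cells that passed both the smooth muscle and the splanchnic gate, 143 in WT and 175 in KO, had Ankrd1 at 89.7 CPM in 32 cells in WT and at 21.7 CPM in 6 cells in KO. Of those 121 KO UMIs, 1 cell held 106. The cells of both gates together had Acta2 at 3739 CPM in WT and 1327 in KO, and Wnt2, a splanchnic gate gene, at 167 and 43.7 CPM, so that the libraries differed in the gate genes of this mixed group as well. In smooth muscle cells the intervals of the other targets included 0: Cyr61 at -0.16 (-0.36 to 0.04), Ctgf at 0.15 (-0.08 to 0.38) and Amotl2 at -0.20 (-0.46 to 0.05). Of the 9 members with enough UMIs in smooth muscle cells, 1 was at least 1.5-fold lower, where 3.9% of 8444 genes were, and 0 were higher, where 3.06% were.

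Ctgf and Cyr61 differed by mesenchymal type. Ctgf was higher in KO in sclerotome, at 0.27 (0.10 to 0.45), and lower in other mesenchyme, at 4.94 CPM in WT and 3.39 in KO, -0.55 (-0.89 to -0.21), although this value was 0.02 with 3 markers per gate. That setting still asked 2 markers for other mesenchyme, so cells that failed the stricter gates could enter this class, and its make-up was not the same. Since sclerotome was a larger share of KO mesenchyme, its share in the pooled mesenchymal value for Ctgf differed as well: sclerotome held 30.6% of the WT and 51.8% of the KO mesenchymal Ctgf UMIs. Cyr61 was lower in KO in other mesenchyme, at -0.30, and in the coelomic epithelium and gonad class, at -0.49 (-0.76 to -0.23). Its values in sclerotome, -0.16 (-0.29 to -0.02), and in splanchnic mesenchyme, -0.36 (-0.62 to -0.11), turned to 0.06 without Pdgfrb-positive cells of both libraries and to 0.27 under 5% mitochondrial UMIs. The Pdgfrb removal took a larger share of WT than of KO mesenchymal cells, as given above. Wwtr1 was higher in KO in sclerotome, at 0.32 (0.19 to 0.45), and its value was also positive in other mesenchyme (0.17), while in splanchnic mesenchyme it was 0.21, or -0.31 with 3 markers per gate. The splanchnic class held unlike cells in the libraries: its gate genes Barx1, Tlx1 and Nkx2-5 were at 154, 26.2 and 12.2 CPM in WT and at 3.61, 0.249 and 0.497 CPM in KO. These differences by mesenchymal type were each under 1.5-fold.

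**Figure D2:**
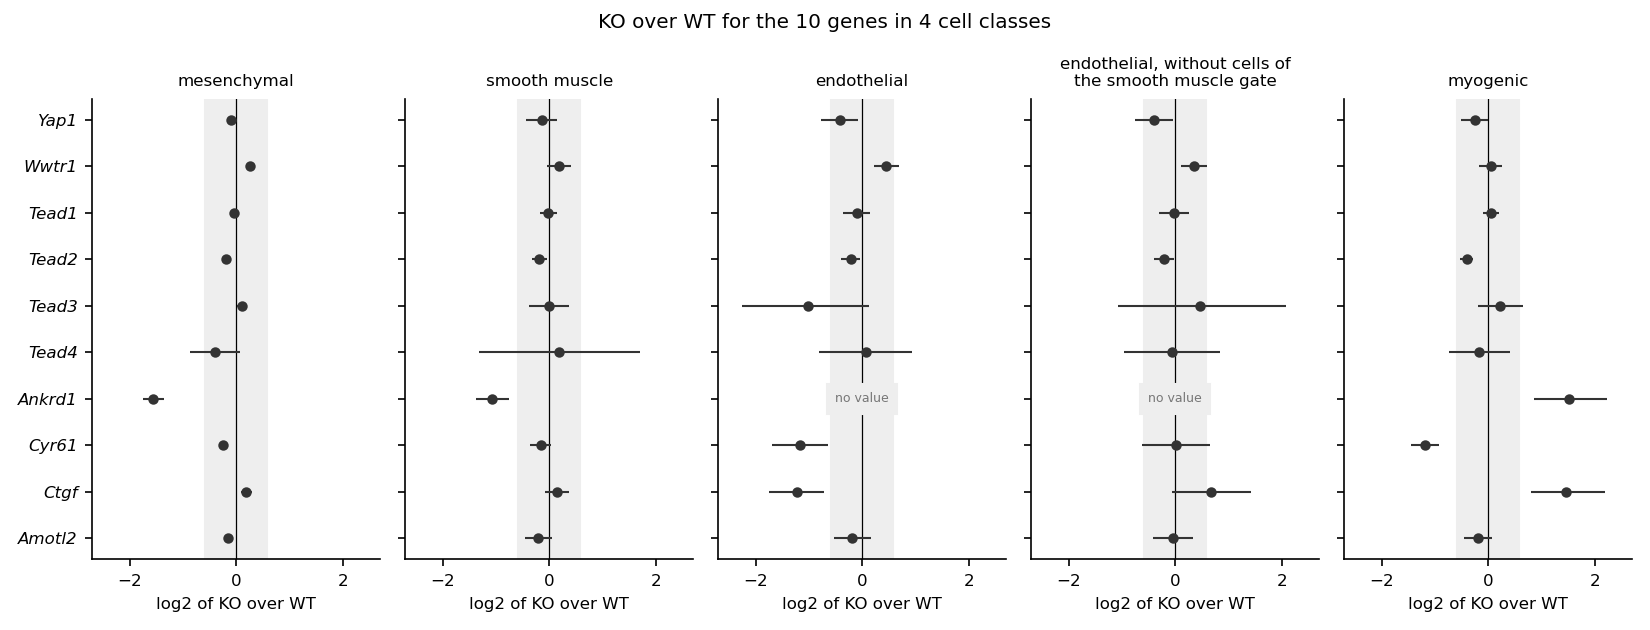
Log2 ratio of KO to WT CPM for each of the 10 genes in mesenchymal, smooth muscle, endothelial and myogenic cells, and in endothelial cells without those that also passed the smooth muscle gate, with exact 95% intervals for counting error; the grey band marks ratios within 1.5-fold. Ankrd1 lies at -1.56 in mesenchymal and at 1.51 in myogenic cells, and the endothelial values of Cyr61 and Ctgf, -1.16 and -1.22, move to 0.01 and 0.67 without the smooth muscle gate cells.

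The Ankrd1 difference rested on few cells. A UMI of Ankrd1 was found in 85 of 5419 WT mesenchymal cells (1.57%) and in 35 of 5810 KO cells (0.602%), at median depths of 12694 and 12029.5 UMIs, against 0 of 182 WT and 0 of 150 KO macrophages (exact upper limits 2.01% and 2.43%), at 18561 and 15964.5 UMIs. With every cell thinned to 2000 UMIs the mesenchymal shares were 0.609% and 0.207%. The 5 cells richest in Ankrd1 held 44.3% of the mesenchymal UMIs in WT and 77.7% in KO, and the richest cell held 116 UMIs in WT and 106 in KO. Without these 5 cells of each library, an alternative chosen after the data were seen, the levels were 5.20 and 0.711 CPM. The log2 value was then -2.87 (-3.27 to -2.49). The removal took a larger share of the KO than of the WT UMIs, so the larger difference follows in part from the removal itself. In smooth muscle cells, 31 of 259 WT (12%) and 15 of 199 KO cells (7.54%) held a UMI.

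The difference also depended on the mitochondrial share of a cell's UMIs. Mesenchymal cells with under 5% mitochondrial UMIs, 1775 in WT and 1585 in KO, had Ankrd1 at 10.5 CPM in 26 WT cells and 10.2 CPM in 20 KO cells, a log2 value of -0.04 (-0.29 to 0.22). In cells with 5% to 10%, 3644 in WT and 4225 in KO, it was at 8.82 CPM in 59 WT cells and 0.815 CPM in 15 KO cells, -3.44 (-3.86 to -3.04). Smooth muscle cells showed the same split, with 123 and 100 CPM, or -0.29, below 5%, and 42.3 and 4.55 CPM, or -3.22, above it. Below 5% they were unlike in depth, with medians of 7769 UMIs in 64 WT cells and 14851.5 in 48 KO cells. Above it the medians were 18512 and 19550 UMIs. The values below 5% rested on few cells, some close to the cut. Of the 235 KO mesenchymal UMIs there, single cells held 106 (at 4.87% mitochondrial UMIs) and 60. Of the 286 in WT, 1 cell at 4.88% held 116. In smooth muscle cells below 5%, single cells held 60 and 24 of the 109 KO UMIs. Acta2, by contrast, was lower in KO mesenchyme in both parts, at -0.67 below 5% and at -0.97 above it. When Pdgfrb-positive cells were left out of both libraries, the mesenchymal Ankrd1 value was -0.14, and when they were left out of KO alone, the filter the study applied, it was -2.38. Either removal was unequal, as 43.1% of the WT but 11.8% of the KO mesenchymal cells held a Pdgfrb UMI. In WT these cells had more Ankrd1 than the others. In KO the 136 cells with UMIs of both Pdgfrb and Cspg4 held 152 of the 291 mesenchymal Ankrd1 UMIs. Both shifts thus follow in part from the removal itself. The part of mitochondrial share, or of Pdgfrb detection, in the Ankrd1 difference was not tested.

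**Figure D3:**
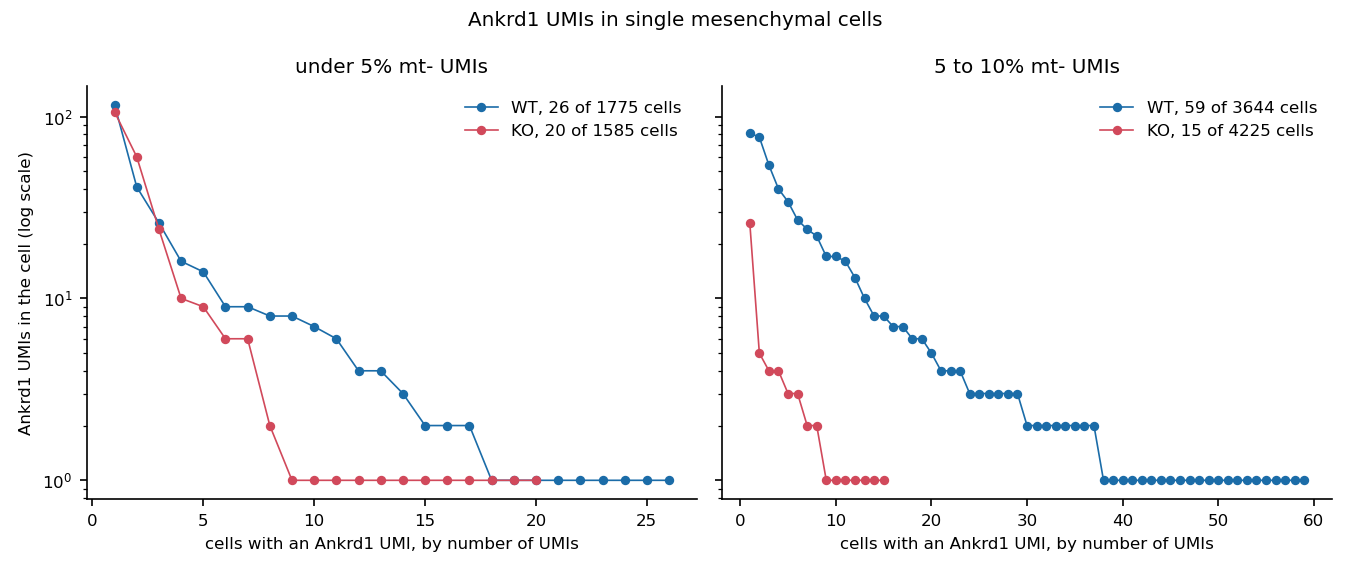
Ankrd1 UMIs of each mesenchymal cell that held any, ranked within library, on a log axis, for cells with under 5% and with 5% to 10% mitochondrial UMIs. Below 5% there are 26 WT and 20 KO cells, of which the richest hold 116 and 106 UMIs, while lower in the ranking the KO cells hold fewer UMIs than the WT cells. Between 5% and 10% there are 59 WT and 15 KO cells.

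Smooth muscle cells that expressed Ankrd1 held more RNA of contractile genes and of the secreted targets than those without it. In WT, the 31 smooth muscle cells with an Ankrd1 UMI had Ctgf at 213 CPM (179 to 251), and the 228 without at 38.0. Cyr61 was at 201 CPM (168 to 238) in the former and 73.0 in the latter, and Amotl2 at 80.5 and 49.5 CPM. Acta2 was at 10985 and 3727 CPM and Actg2, the enteric actin, at 2385 and 407 CPM. The factors differed less, with Tead1 at 166 and 131 CPM and Tead2 at 138 and 176 CPM. The median depth was 18626 UMIs with and 16698 without. In KO the 15 cells with a UMI and the 184 without had Ctgf at 273 and 52.0 CPM, Cyr61 at 124 and 76.1 CPM, Acta2 at 8048 and 2554 CPM, and Tead1 at 207 and 129 CPM. Fos, an immediate early gene, was at 42.5 CPM in WT Ankrd1 cells and 78.6 in the others, and at 31.1 and 79.1 CPM in KO. The early genes Egr1 and Jun did not follow it in WT, with Egr1 at 85.1 and 75.7 CPM and Jun at 260 and 152 CPM, and in KO they were at 27.6 and 90.2 CPM and at 283 and 267 CPM.

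In mesenchymal cells of WT, the targets were highest in cells in which both Pdgfrb and the pericyte gene Cspg4 were detected. Ankrd1 was at 37.3 CPM in the 341 cells with both, at 9.49 in the 1994 with Pdgfrb alone, at 0.794 in the 234 with Cspg4 alone and at 2.11 in the 2850 with neither. Ctgf was at 50.9, 10.8, 28.9 and 9.29 CPM in the same order, so that it went with Cspg4, while Cyr61 was at 79.1, 42.9, 37.3 and 32.2 CPM. Amotl2 was at 56.4, 41.9, 36.0 and 31.6 CPM. Yap1 and Tead2 were flat, at 50.2, 52.5, 47.4 and 46.5 CPM and at 171, 187, 175 and 187 CPM. Tead1, at 119, 101, 86.1 and 77.9 CPM, Wwtr1, at 47.7, 38.6, 41.3 and 33.6 CPM, and Tead3, at 22.8, 19, 12.2 and 16.6 CPM, were highest in the cells with both genes, as the targets were. Cells with both genes were deeper, at a median of 21374 UMIs against 10643.5 in cells with neither. The study found cells with NG2 alone around the notochord, and cartilage genes enriched in them. Of the cells with both genes, 24.0% were in the smooth muscle class, against 2.99% with Cspg4 alone and 2.88% with neither. These shares leave out cells that passed the smooth muscle gate together with another mesenchymal gate. Acta2 was at 2828 CPM with both and 261 CPM with neither. In KO the 136 cells with both had Ankrd1 at 29.99 CPM, and the 630 with Cspg4 alone had Ctgf at 37.5 CPM, above the 9.85 CPM of the 547 with Pdgfrb alone.

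**Figure D4:**
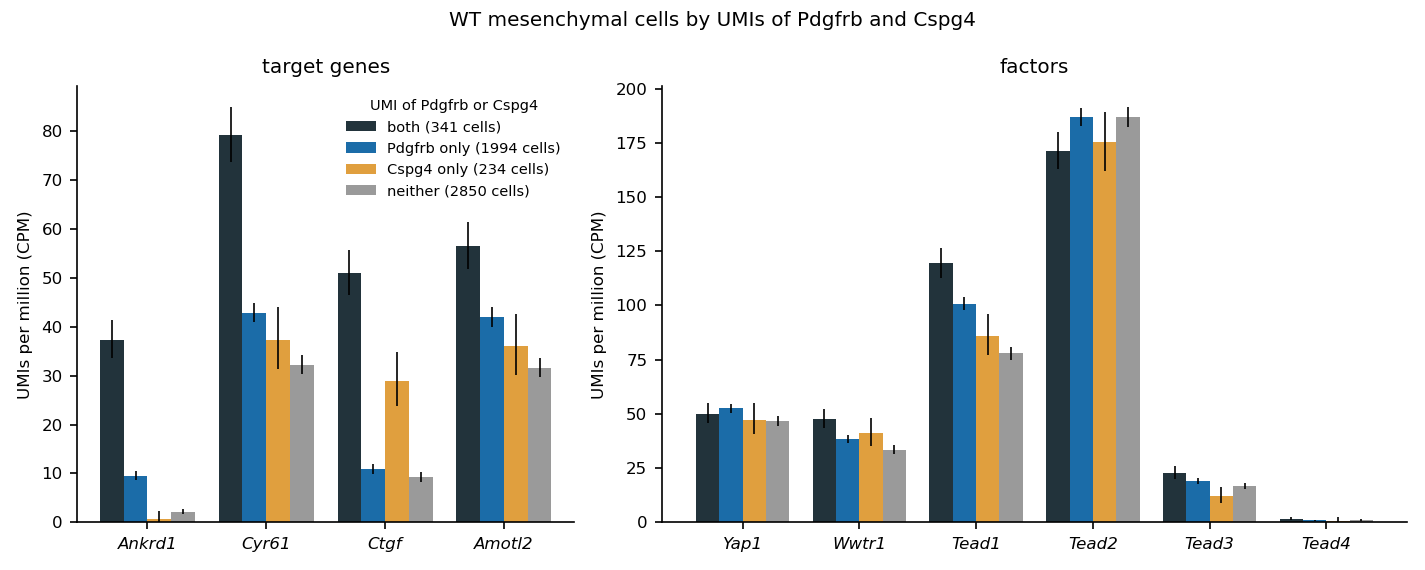
CPM of the targets and factors in WT mesenchymal cells split by detection of Pdgfrb and Cspg4 UMIs, with exact Poisson 95% intervals as bars and 1 library. Ankrd1 is at 37.3 CPM in the 341 cells with both and at 2.11 CPM in the 2850 with neither, while Yap1 lies between 46.5 and 52.5 CPM in the 4 groups.

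In endothelial cells, 124 in WT and 93 in KO, Cyr61 was at 30.5 CPM in WT and 13.7 in KO, -1.16 (-1.69 to -0.65) on the log2 scale, and Ctgf at 31.9 and 13.7 CPM, -1.22 (-1.75 to -0.72). Of the 7 members with at least 100 UMIs in the endothelial class, these 2 were at least 1.5-fold lower in KO and 0 were higher, where 5.97% of 7155 genes were lower and 3.42% higher. Both differences rested on cells that also passed the smooth muscle gate, 10 of the 124 WT and 2 of the 93 KO cells. These 10 WT cells held 91 of the 117 Ctgf UMIs, 69 of the 112 Cyr61 UMIs and all 8 Ankrd1 UMIs of the class. They also held 3551 Acta2 UMIs, but 2 of Pecam1 and 1 of Cdh5, both defining endothelial genes. Without the cells of both gates, an alternative chosen after the data were seen, Cyr61 was at 13.6 CPM in WT and 13.7 in KO, 0.01 (-0.63 to 0.65), and Ctgf, with 26 and 43 UMIs, at 8.20 and 13.1 CPM, 0.67 (-0.07 to 1.43). In those 114 WT and 91 KO cells Cdh5 was at 526 and 581 CPM.

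**Figure D5:**
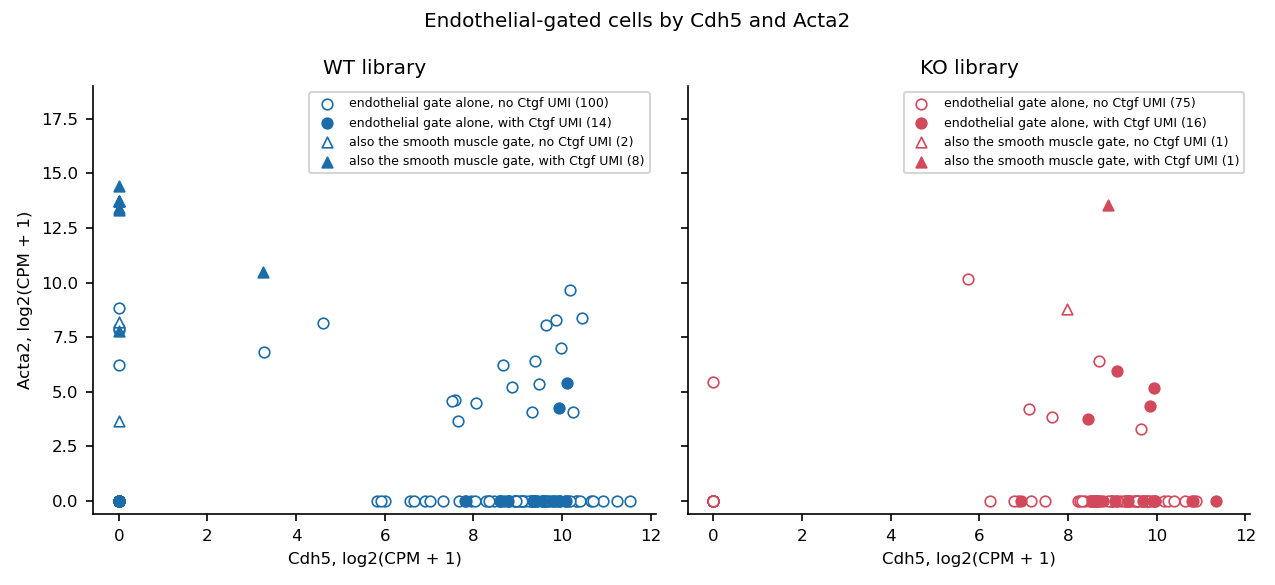
Cdh5 and Acta2 of each cell of the endothelial class, as log2(CPM + 1), in WT and KO, with filled symbols for cells with a Ctgf UMI and triangles for cells that also passed the smooth muscle gate. Of the 10 WT triangles, 8 hold a Ctgf UMI, and their Acta2 runs from 11.5 to 21995 CPM, 3 of them within the range of the other cells; they hold 1 Cdh5 UMI between them.

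The endothelial values of the co-activators moved little without those cells. Wwtr1 was at 72.0 CPM in WT and 98.4 in KO, 0.45 (0.21 to 0.69), and at 75.1 and 95.9 CPM, 0.35 (0.11 to 0.60), without the smooth muscle gate cells. Yap1 was lower in KO, at -0.42 (-0.76 to -0.08) in the whole class and at 48.3 and 36.7 CPM, -0.39 (-0.75 to -0.04), without them. The Wwtr1 value was positive in every alternative run. The Yap1 value was not stable: it was 0.06 as a mean of the CPM of each cell and 1.19 with each cell thinned to 2000 UMIs. Amotl2 was level at 39.1 and 37.9 CPM without the smooth muscle gate cells, and Tead4, the factor highest over mesenchyme, was level at 7.26 and 6.98 CPM.

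In the myogenic class, the skeletal muscle precursors caught with the dissected tissue (184 cells in WT and 454 in KO), the targets split. Ankrd1 was at 4.28 CPM in WT and 12.2 in KO, higher by 1.51 (0.85 to 2.23) on the log2 scale, and Ctgf at 4.28 and 11.8 CPM, higher by 1.47 (0.80 to 2.19). Cyr61, from the same family as Ctgf, was at 52.1 CPM in WT and 22.9 in KO, lower by 1.19 on the log2 scale (-1.19, interval -1.44 to -0.93). Among the factors the largest difference was that of Tead2, at 192 and 145 CPM, -0.41 (-0.52 to -0.29). Of the 10 members, 1 was at least 1.5-fold lower and 2 were higher in myogenic cells, against 3.61% and 2.09% of 9094 genes. Vgll2, a muscle-specific cofactor of the TEAD proteins, was at 97.3 CPM in WT and 172 in KO, higher by 0.82 (0.68 to 0.97).

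The myogenic Ankrd1 UMIs came from 10 of 184 cells in WT (5.43%) and 32 of 454 in KO (7.05%), with no more than 23 in a KO cell. The 5 richest cells held 77.3% of them in WT and 51.2% in KO, and without these cells, which leaves 5 and 63 UMIs, the log2 value was 2.59 (1.29 to 4.26). This removal took a larger share of the WT UMIs, so the higher value follows in part from it. Without the cells that also passed the smooth muscle gate, Ankrd1 was at 3.32 and 7.62 CPM, 1.20 (0.36 to 2.14), Ctgf at 3.32 and 8.93 CPM, 1.43, and Cyr61 at 47.9 and 18.7 CPM. The 32 KO cells with Ankrd1 had Acta2 at 3390 CPM and Tagln at 467 CPM, against 1052 and 60.6 CPM in the 422 without. Of these 32 cells, 24 did not pass the smooth muscle gate, and the cells that did held 59 of the 129 KO Ankrd1 UMIs. Of the gate's markers, Myocd, Lmod1 and Synpo2 were not read in this split, although each cell that passed the gate held UMIs of at least 2 markers. Myh11 was at 0, Actg2 at 1.03 and Cnn1 at 2.06 CPM in the cells with Ankrd1, and at 1.04, 6.46 and 2.81 CPM in those without. The KO cells with Ankrd1 had more Myog, the gene of myogenin and of differentiating myoblasts, at 1143 CPM against 751. They had less Pax7, a gene of muscle progenitors, at 16.5 CPM against 50.3. Wwtr1 was at 90.5 CPM with Ankrd1 and 47.6 without, Ctgf at 43.2 and 8.64 CPM, and Tead2 at 96.7 and 150 CPM. The early genes Fos, Egr1 and Jun were at 271, 353 and 384 CPM with Ankrd1 and at 50.5, 76.4 and 135 CPM without in KO, but Fos was at 79.0 and 109 CPM in WT. The WT and KO myogenic classes held unequal numbers of cells, and the part of their make-up in these differences was not tested.

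The wider pathway was read from lists of genes that were chosen with earlier results of these data known. Of 25 Hippo kinases and regulators, 24 had at least 100 UMIs in mesenchymal cells, with a median of 0.12. Of these, 1 was at least 1.5-fold lower and 1 higher in KO, where 4.66% and 4.42% of all 13547 genes were. The lower was Vgll3, a TEAD cofactor, at -0.65. The higher was Vgll2, another cofactor of the same family, at 0.593 CPM in WT and 1.35 in KO, 1.19. Amot, which like Amotl2 binds YAP, was just under the threshold, at 41.6 and 62.2 CPM, 0.58. Vgll4, which competes with YAP for the TEAD factors, was at 65.5 and 85.3 CPM, 0.38, and Mob1a, a co-factor of the kinases, at 37.1 and 29.1 CPM, -0.35. Of 18 other genes known as YAP and TAZ targets, 17 had enough UMIs, 0 were lower or higher by 1.5-fold, and the median was -0.03. Their lowest values were for Igfbp3 (-0.35), Ccdc80 (-0.26) and Myof (-0.20) and the highest for Nuak2 (0.57), Dock5 (0.44) and Fjx1 (0.37).

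Ankrd1 and Ctgf are also known to respond to serum response factor (SRF) and to early stress signals, so those genes were read beside them. The 10 SRF and cytoskeletal genes had a median of -0.23 in mesenchymal cells. Of these, 2 were at least 1.5-fold lower in KO and 0 higher, where 4.66% and 4.42% of all 13547 genes were. The lower genes were Acta2, at 691 CPM in WT and 374 in KO, -0.89, and Tagln, at 364 and 222 CPM, -0.71. Actb and Tpm1 were at 0.12 and 0.02. Acta2 was also at 44.9 CPM in WT and 6.13 in KO macrophages outside the smooth muscle gate, cells that should lack it. Of 15 immediate early and stress genes, 2 were lower and 1 higher with a median of 0.09, Hspa1a at -0.72, Hspa1b at -0.60 and Fosb, at 10.1 and 18.4 CPM, at 0.87. Jun was at 129 and 184 CPM, 0.52. In smooth muscle cells 10 of these 15 early and stress genes had enough UMIs, with a median of 0.37. Of these, 3 were at least 1.5-fold higher in KO and 0 lower, where 3.06% and 3.9% of 8444 genes were. Their median was -0.12 in endothelial and -0.11 in myogenic cells. In endothelial cells 5 of the 10 SRF and cytoskeletal genes were lower, where 5.97% of 7155 genes were. Acta2 led them, at 1002 CPM in WT and 91.0 in KO. Of its 3678 WT UMIs, 3551 were in the smooth muscle gate cells described above. The other lower genes were not read without those cells. In smooth muscle cells, 1 of the 10 was lower, where 3.9% of 8444 genes were: Acta2, at 4595 and 2884 CPM, -0.67. Of the 18 other YAP and TAZ targets, 13 had enough UMIs in smooth muscle cells, of which 10 were below 0, with a median of -0.13. None was lower by 1.5-fold and 1 was higher, where 3.06% of 8444 genes were. This was Foxf2, a mesenchymal factor, at 3.81 CPM in WT and 23.0 in KO, 2.59 (1.91 to 3.34). In summed counts, fewer cells that express a gene and less of its RNA per cell cannot be told apart.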

How the data were processed

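Single cells of whole AGM regions were profiled with the 10x Chromium 3′ chemistry, with 1 library per genotype (WT and KO). The authors aligned the reads with Cell Ranger 3.1.0 to the mm10 reference (GRCm38) and deposited unfiltered matrices of UMI counts, whole numbers per gene and barcode with no normalization, for all barcodes (179743201 UMIs in WT, 174597654 in KO). The study's own comparisons were not used.

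From these counts, barcodes with at least 2000 UMIs and under 10% mitochondrial UMIs were kept as cells. The study called cells by a test against free RNA instead, so numbers of cells need not match. A cell entered a class when it held UMIs of at least 2 different markers of that gate. Erythroid cells had at least 10% globin UMIs. Cells of several lineage gates were set aside as candidate doublets and other doublets were kept. Mesenchymal cells passed no lineage gate, and comprised the 3 mesenchymal gates, cells of several of them, and other mesenchyme with UMIs of at least 2 general markers. UMIs were summed per class and divided by the summed UMIs of all genes. Levels have exact Poisson, shares exact binomial (Clopper-Pearson) and ratios exact conditional binomial 95% intervals. A gene was counted as lower or higher from 1.5-fold, among genes with at least 100 UMIs over both libraries in the class. All 10 members were described in every class with at least 50 cells in both libraries; of each list, the 3 highest and 3 lowest genes with at least 100 UMIs could be named, and similar genes were those of highest Pearson r on log2(CPM + 1) over the 12 WT classes, for members with at least 500 UMIs. Acta2, Myh11, Fos and other genes outside these rules were added as context after their values were seen. The members and lists were chosen with earlier results of these data known. Of the alternatives, 14 were set first and 2 were chosen after the data were seen. Gene positions are from GENCODE M21, matched by gene ID, and promoters from RefSeq (GRCm38.p6). Intervals and thinning were tested on simulated data. Python 3.11.15, numpy 2.4.6, scipy 1.17.1, pandas 2.3.3 and matplotlib 3.10.9 were used.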

Additional observations from a re-analysis of the deposited data

Results flagged for a closer look

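Targets whose KO over WT difference had opposite signs in different cell classes are given here; the difference between classes was not tested. For Ankrd1 the log2 value was 1.51 in myogenic cells, against -1.07 in smooth muscle cells, -1.71 in cells of several mesenchymal gates and -1.56 in mesenchymal cells as a whole. For Ctgf it was 1.47 in myogenic and -1.22 in endothelial cells, and the latter became 0.67 without the cells that also passed the smooth muscle gate.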

How the results depend on the processing

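The median log2 difference between KO and WT was -0.20 over the 4 targets in mesenchymal cells. It was -0.0149 with mitochondrial UMIs under 5%, -0.25 with 3 markers per gate, -0.28 without Pdgfrb-positive cells of KO and 0.0610 without those of both libraries. The removal from both libraries was unequal, with 43.1% of the WT and 11.8% of the KO mesenchymal cells left out. Over the 6 factors it was -0.07, and -0.12, 0.0545 and -0.0185 without Pdgfrb-positive cells of KO, of both libraries, and with the mix of mesenchymal types equalised. The 1 member at least 1.5-fold lower in mesenchymal cells was Ankrd1, but with mitochondrial UMIs under 5% it was Tead4 (-0.92) and Ankrd1 was at -0.04, and without Pdgfrb-positive cells of both libraries the count was 0.

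In endothelial cells the targets had a median of -1.16, without Ankrd1, which had no value there at 8 WT and 0 KO UMIs. It was 1.03 with mitochondrial UMIs under 5%, 0.0127 with 3 markers per gate, 0.10 as a mean of per-cell CPM, -0.0090 with each cell thinned to 2000 UMIs, -0.16 without Pdgfrb-positive cells, -0.46 without the deepest 5% of cells, 0.0102 without smooth muscle gate cells and -0.37 without the 5 richest cells. Cyr61 there became 0.37 under 5% mitochondrial UMIs and 0.0102 without smooth muscle gate cells. Ctgf there, at -1.22, became 1.74 (under 5% mitochondrial UMIs), 0.10 (3 markers), 0.10 (per-cell mean), 0.25 (thinned), 0.33 (no Pdgfrb-positive cells) and 0.67 (no smooth muscle gate cells). Yap1 in macrophages, at -0.74, became 0.0724 without Pdgfrb-positive cells.

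Endothelial over mesenchymal cells in WT, the targets had a median of -0.16, and -1.65 under 5% mitochondrial UMIs, -0.35 as a per-cell mean, -0.36 thinned, -0.58 without Pdgfrb-positive cells, -0.38 without the deepest 5%, -0.90 without smooth muscle gate cells and -0.73 without the 5 richest cells. Ctgf in that comparison, at 1.06, became -1.65 (mitochondrial UMIs under 5%), -0.34 with 3 markers, -0.0449 without Pdgfrb-positive cells, -0.90 without smooth muscle gate cells and -0.73 without the 5 richest cells. The factors had -0.14, and 0.0073 with median-ratio scaling (which shifts every gene by 0.14 in this comparison), -0.56 thinned and -0.29 without the 5 richest cells. The causes were not tested. Of 1884 recomputed values of single members, 1561 moved by less than their counting interval, 309 moved by more and 14 changed the sign of a value that was past 1.5-fold with an interval clear of 0. The 1561 include values that a setting could not change, so their number does not measure stability. Examples are mesenchymal values when lineage cells were left out, and values without a minimum of UMIs. With smaller values included, 195 had the other sign, in 80 of 140 results.

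Levels of Tead4 and, outside smooth muscle, Ankrd1 are limited by few UMIs. No paired analysis was possible because there was 1 library per genotype.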
